A study of Homo sapiens with 20 samples.

Results

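H3K4me3, the trimethylation of lysine 4 on histone H3, was mapped by ChIP-seq in MLL4-knockout (KO) and wild-type (WT) HCT116 cells, an established human colorectal carcinoma line. The data described here are the peak lists of the 4 H3K4me3 libraries, 2 per genotype, out of 20 libraries in the series; the remaining libraries covered H3K27ac, H3K4me1, MLL4, MLL1, p53 and 1 input for each genotype. Peaks on chromosomes 1 to 22 were merged wherever they overlapped by at least 1 bp, which joined 19891 and 17878 KO peaks and 20380 and 19153 WT peaks into 24025 regions. A region was present in a library if a peak of that library lay in it, so presence means that the signal passed the caller's limit. KO and WT cells were HCT116 cultures in the same medium, and the labels give no treatment, no knocked-out allele and no statement on whether the KO line is a single clone. Nor do they say whether the libraries of a genotype stem from separate cultures, and a p-value here reflects how far these libraries scatter, part of which may be technical.

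MLL4, encoded by KMT2D, belongs to the COMPASS-related family of H3K4 methyltransferases and is best known for placing the monomethyl mark H3K4me1 at enhancers. The trimethyl mark at promoters is laid down mainly by the SETD1A, SETD1B, MLL1 and MLL2 complexes, which are drawn to unmethylated CpG-rich DNA. H3K4me3 is therefore densest over the starts of active genes in CpG islands, while enhancers usually carry little of it. The comparison of KO with WT asks which H3K4me3 regions differ when MLL4 is missing.

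Promoters from 3 groups are shown to make the regions concrete: 3 that carried H3K4me3 in both WT and neither KO library (MITF, LAMB3 and ZNF44), 1 with the reverse pattern (PCDHB14), and that of CDKN1A, which was marked in all 4. Each is the RefSeq promoter of GRCh38.p14, from 250 bases before to 50 bases after the listed start, given 5′ to 3′ on the gene's strand, with every CpG in capitals.
MITF, chr3:69739214-69739513, plus strand: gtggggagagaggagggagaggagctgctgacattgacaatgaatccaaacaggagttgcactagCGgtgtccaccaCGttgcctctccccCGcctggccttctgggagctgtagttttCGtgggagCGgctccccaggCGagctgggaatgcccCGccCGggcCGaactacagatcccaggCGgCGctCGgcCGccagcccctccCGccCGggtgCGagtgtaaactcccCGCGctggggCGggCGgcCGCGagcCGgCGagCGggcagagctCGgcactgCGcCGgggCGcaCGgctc
LAMB3, chr1:209652280-209652579, minus strand: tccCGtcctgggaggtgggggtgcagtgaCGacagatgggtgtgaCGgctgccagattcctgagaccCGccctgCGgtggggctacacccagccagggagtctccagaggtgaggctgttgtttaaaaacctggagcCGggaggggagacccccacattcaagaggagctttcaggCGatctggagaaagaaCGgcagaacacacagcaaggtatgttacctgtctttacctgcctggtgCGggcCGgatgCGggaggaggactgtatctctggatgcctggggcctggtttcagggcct
ZNF44, chr19:12294563-12294862, minus strand: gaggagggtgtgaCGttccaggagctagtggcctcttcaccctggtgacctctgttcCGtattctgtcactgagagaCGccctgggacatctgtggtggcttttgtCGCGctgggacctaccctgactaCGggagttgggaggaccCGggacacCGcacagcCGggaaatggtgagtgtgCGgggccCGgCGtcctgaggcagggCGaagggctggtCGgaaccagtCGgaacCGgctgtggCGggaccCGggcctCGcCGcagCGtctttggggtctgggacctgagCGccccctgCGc
PCDHB14, chr5:141223093-141223392, plus strand: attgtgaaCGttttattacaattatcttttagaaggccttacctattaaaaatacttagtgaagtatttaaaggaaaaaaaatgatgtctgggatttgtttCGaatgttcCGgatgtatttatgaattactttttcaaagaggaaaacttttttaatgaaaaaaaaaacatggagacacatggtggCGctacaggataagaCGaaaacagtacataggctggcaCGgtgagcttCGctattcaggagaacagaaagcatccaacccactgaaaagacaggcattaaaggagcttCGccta
CDKN1A, chr6:36678464-36678763, plus strand: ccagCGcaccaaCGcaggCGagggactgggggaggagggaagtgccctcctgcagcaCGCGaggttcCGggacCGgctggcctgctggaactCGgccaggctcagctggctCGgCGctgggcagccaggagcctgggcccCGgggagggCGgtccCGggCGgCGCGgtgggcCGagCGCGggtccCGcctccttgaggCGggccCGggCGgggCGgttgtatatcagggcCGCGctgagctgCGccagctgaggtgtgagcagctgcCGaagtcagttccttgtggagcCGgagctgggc
The promoter of MITF holds 30 CpGs, that of CDKN1A 29, that of ZNF44 23, that of LAMB3 11 and that of PCDHB14 8, against a median of 21 over all 21156 promoters in the table.

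Read depth is unknown for all 4 libraries, and 1 of them, WT replicate 2, stood apart. It held 130 regions of at least 30-fold enrichment that no other library had, whereas WT replicate 1 held 1 such region and KO replicates 1 and 2 held 0. It also lacked 60 regions that had at least 30-fold enrichment in each of the other 3 libraries, a count that was 0 for each of the others. Of its 130 regions, 81 (62.3%) lay at promoters, against 47.7% of all regions and 70.4% of those in all 4 libraries. The promoter share rises with strength: of regions in both WT libraries it was 48.7% at 20- to 50-fold and 89.3% at 50-fold or more. The 130 are thus not richer in promoters than regions of like strength. Of the 130, 24 held the promoter of a zinc finger (ZNF) gene, against 348 of 24025 regions and 303 of the 15074 in all 4 libraries. On chromosome 19 lay 25 of the 130 (19.2%) and 14 of the 60 missing ones (23.3%), against 6.76% of all regions. H3K27ac of WT replicate 2 covered 97.7% of the 130 regions (95% interval 93.4 to 99.2), against 16.9% in KO replicate 1, 13.8% in KO replicate 2 and 59.2% in WT replicate 1. At the 60 missing regions, H3K27ac of WT replicate 2 covered 90.0%, against 100% in each of the other 3 H3K27ac libraries. The median H3K27ac fold of the covered regions was 9.76 in WT replicate 2, 24.1 in WT replicate 1 and 11.7 and 12.6 in KO. It reached 10-fold at 26 of the 60 regions in WT replicate 2, 56 in WT replicate 1 and 34 and 36 in KO. The cause was not tested, and counts without WT replicate 2 are given beside the results it touches. The identity of the cells was checked on marker promoters, of which 8 of 14 for colon epithelium, among them EPCAM and KRT18, were marked in all 4 libraries. That share, 57.1%, was no higher than the 61.0% of all protein-coding genes. CDX1, HNF4A, KRT20, VIL1 and VILL had no peak in any library. Of the fibroblast markers 2 of 7 (COL1A1 and PDGFRA) and of the blood markers 1 of 6 (SPI1) were marked in all 4. Of the neuron markers 3 of 6 were (PAX6, SNAP25 and SYT1). No peak was found at COL1A2, COL3A1, PTPRC or CD3E, among others. With 8 of 14 colon and 3 of 6 neuron markers marked, this check separates cell types poorly and cannot settle the identity of the cells.

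The H3K4me3 landscape was largely shared between the genotypes, and its covered length and median peak width were larger in each KO library than in either WT library. KO libraries held 19891 and 17878 peaks and WT libraries 20380 and 19153, with overlapping ranges. The means were 18884.5 ± 1423 peaks in KO and 19766.5 ± 868 in WT (SD, n = 2 each; log2 KO over WT −0.07, two-sided exact permutation p = 0.667). Without KO replicate 2 the log2 ratio was 0.0098. Peaks covered 37.7 and 35.0 Mb in the KO libraries, against 34.5 and 32.9 Mb in the WT libraries (log2 KO over WT 0.11, exact permutation p = 0.33). With 2 libraries against 2, 0.33 is the smallest p this test can give. The ranges of covered length did not overlap, and KO replicate 2 lay closest to WT replicate 1.

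Of the 24025 regions, 15074 (62.7%) were present in all 4 libraries. A further 426 regions were present in both KO and no WT library (KO-only) and 903 in both WT and no KO library (WT-only), which is 1.77% and 3.76% of all regions. In chromatin from bulk cells, a mark on fewer cells and less of the mark per cell cannot be told apart. Regions found in a single library numbered 1275 in KO replicate 1, 323 in KO replicate 2, 1252 in WT replicate 1 and 1942 in WT replicate 2. Except for KO replicate 2, each of these counts exceeded the WT-only and KO-only counts. Regions missing in WT replicate 2 alone numbered 1331, against 106 for KO replicate 1, 503 for KO replicate 2 and 60 for WT replicate 1. The counts of 1 genotype moved with single libraries. WT-only regions numbered 1415 without KO replicate 1, 2908 without WT replicate 1 and 2209 without WT replicate 2. KO-only regions numbered 833 without KO replicate 1, 1738 without KO replicate 2, 1767 without WT replicate 1 and 487 without WT replicate 2. With each list reduced to the length of the shortest, 491 regions were KO-only and 505 WT-only.

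**Figure D1:**
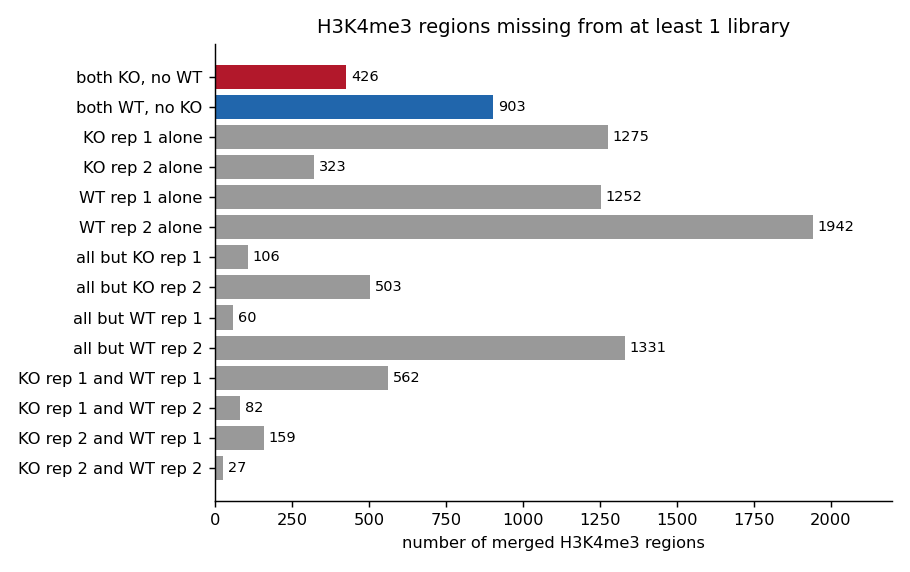
Number of merged H3K4me3 regions (x axis) for each pattern of presence that misses at least 1 of the 4 libraries (y axis); the 15074 regions present in all 4 are left out. KO-only (426, red) and WT-only (903, blue) regions were fewer than those of WT replicate 2 alone (1942) or of all but WT replicate 2 (1331).

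Regions of 1 genotype were weak and mostly lay away from gene starts, as were the 7622 regions of mixed presence. Fold enrichment per peak is the authors' own value and is used here to describe and rank regions; the fold of a region is that of its highest peak. At KO-only regions the lower of the 2 KO folds had a median of 5.39 and at WT-only regions the lower of the 2 WT folds one of 4.71, against 75.1 for the lowest of 4 folds at shared regions. Their median merged widths were 563.5 bp for KO-only and 696 bp for WT-only regions, and 2526 bp for shared ones. Promoters, taken as 1 kb on either side of a listed start, or of either gene end where no start is listed, held 38 of the KO-only regions (8.92%, 95% interval 6.57 to 12.01) and 86 of the WT-only regions (9.52%, 7.78 to 11.6). They held 70.4% of the shared regions and 9.56% of the mixed ones, whose median lower fold was 5.15 and median width 471 bp. Intervals here cover counting error over regions only.

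Strong H3K4me3 regions were almost never restricted to 1 genotype. Of the regions in both KO libraries, 24.4% were missing from both WT libraries where the lower KO fold was under 5, 13.2% at 5 to 10, 1.85% at 10 to 20 (28 of 1514) and 0 of 2583 at 20 to 50 and 0 of 10364 at 50 or more, with 95% upper limits of 0.149% and 0.0371%. Of the regions in both WT libraries, 43.6% were missing from both KO libraries under 5-fold, 17.9% at 5 to 10 and 2.99% at 10 to 20 (38 of 1272). At 20 to 50 that number was 10 of 1901, and at 50 or more it was 1 of 10355, the LRP12 region. At 10-fold or more in both libraries of a genotype, 28 regions were KO-only, 2 of them at promoters, and 49 were WT-only, 19 of them at promoters.

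A small set of promoters carried strong H3K4me3 in WT and no peak in KO. LRP12, which encodes a receptor of the LDL receptor-related family, had no peak in KO replicate 1 or 2, against folds of 75.4 and 74.2 in WT replicates 1 and 2 (chromosome 8, 104587918 to 104589892). PKIA, an inhibitor of protein kinase A, had no peak in either KO library, against 43.6- and 49.7-fold in the WT libraries. Both genes lie on chromosome 8, where the reference used gives no listed start, and both regions overlap an end of the gene.

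The melanocyte and lysosome transcription factor gene MITF had no KO peak at its listed start, against 27.5- and 21.5-fold in WT (chromosome 3, 69739322 to 69740421). SDR42E2, of the short-chain dehydrogenase family, had none in KO, against 22.4- and 16.2-fold in WT. SCNN1A, a subunit of the epithelial sodium channel, lacked a peak in both KO libraries, against 20.7- and 23.5-fold in WT over a region of 5499 bp (chromosome 12, 6371741 to 6377239). At LRP12, PKIA, MITF, SDR42E2 and SCNN1A the WT libraries lay within 1.5-fold of each other.

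At the other WT-only promoter regions of high fold, WT replicate 2 was well above WT replicate 1. The zinc finger gene ZNF700 had no KO peak, against 34.7-fold in WT replicate 1 and 176.6-fold in WT replicate 2. ZNF530 had none in KO, against 24.0- and 116.8-fold in the same order of WT libraries. The paired genes DUOX1 and DUOXA1, a hydrogen peroxide-producing oxidase and its maturation factor, share a region without a KO peak, against 28.3- and 86.6-fold in WT. The clustered protocadherin PCDHAC2, an adhesion molecule, had none in KO, against 28.6- and 65.2-fold in WT. BIK, a pro-apoptotic BCL2-family gene, had a region 405 bp from a gene end with no KO peak, against 17.1- and 125.2-fold in WT. Gene ends stand in where no start is listed, so this end may not be the start of BIK. BIK is not among the WT-only genes counted below, as only this region was WT-only. Each of these 5 regions was called in both WT libraries and in neither KO library, with a fold that differed over 2 times between the WT libraries.

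**Figure D2:**
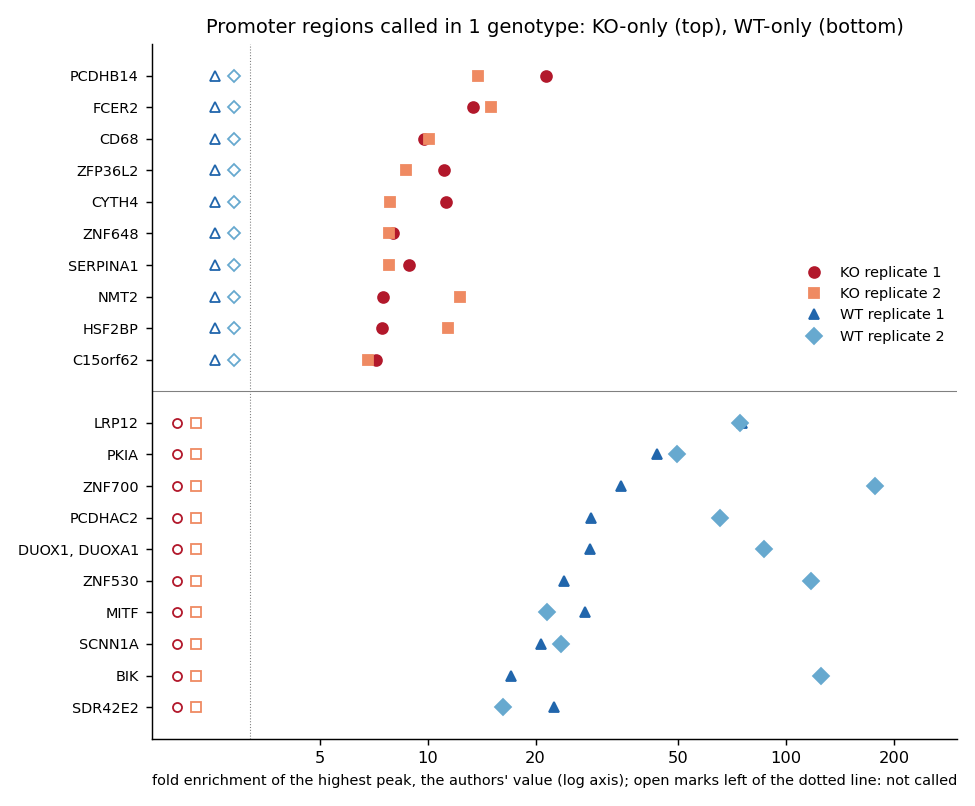
Fold enrichment of the highest peak (x axis, log scale, the authors' values) in each library at the 10 KO-only promoter regions (top) and the 10 WT-only promoter regions (bottom) of highest fold; open marks left of the dotted line stand for no peak and have no value. KO-only folds lie between 6.83 and 21.3, while WT-only folds reach 176.6 in WT replicate 2.

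Counted by gene, 33 of 19126 protein-coding genes (0.173%) had H3K4me3 at the promoter in both KO and no WT library, and 56 (0.293%) in both WT and no KO library. The promoter was marked in all 4 libraries for 11665 genes (61.0%). Among the 56 WT-only genes, the median fold was 8.61 in WT replicate 1 and 24.0 in WT replicate 2, and 29 genes had a fold in WT replicate 2 over 3 times that in WT replicate 1, while 0 had the reverse. Without WT replicate 2 the WT-only genes numbered 102, and without WT replicate 1 they numbered 282. Of the 33 KO-only genes, 23 lay in a region that was KO-only as a whole. Another 6 (LOC124905565, UBXN6, SCARF1, GNG8, FAM107A and LGALS7B) lay at the edge of a region present in all 4 libraries, which reached the promoter window in KO alone. KO-only genes numbered 67 without KO replicate 1, 66 without KO replicate 2, 185 without WT replicate 1 and 44 without WT replicate 2.

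KO-only promoters were weaker than the strongest WT-only ones. PCDHB14, a clustered protocadherin, had 21.3- and 13.8-fold enrichment in KO replicates 1 and 2 and no peak in WT (chromosome 5, 141223251 to 141224001). FCER2, the low-affinity IgE receptor CD23 of B cells, had 13.4- and 15.0-fold in KO and none in WT. CD68, a lysosomal glycoprotein of macrophages, had 9.79- and 10.1-fold in KO and none in WT. ZFP36L2, an mRNA decay factor, ZNF648, CYTH4, SERPINA1 (alpha-1 antitrypsin), NMT2, an N-myristoyltransferase, HSF2BP and C15orf62 followed, with KO folds between 6.83 and 12.3 and no WT peak. ZFP36L2, NMT2 and HSF2BP are not among the 33 KO-only genes, since only these regions, and not their whole promoter windows, lacked WT peaks. H3K4me1 in KO was present at 9 of these 10 regions, HSF2BP being the exception, and H3K4me1 in WT at all 10.

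Gene lists were read by counts, beside the 61.0% of all genes that were marked in all 4. Of the 20 genes of H3K4 methylation, 19 had a promoter marked in all 4 libraries, SETD1B being the exception with no peak in any. KMT2D, the targeted gene, kept its own promoter peak, with 161.2- and 199.3-fold in KO and 177.7- and 185.8-fold in WT, and widths of 4549 and 4423 bp in KO and 4144 and 4124 bp in WT. This mark does not report the deletion; the MLL4 ChIP itself had a peak at 2 of the 15074 shared regions in KO and at 7057 in WT. KMT2A, which encodes MLL1, had 151.0- and 171.8-fold in KO and 196.5- and 219.4-fold in WT, and KMT2C, which encodes MLL3, 100.6- and 131.5-fold in KO and 103.4- and 127.1-fold in WT.

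Of the 30 p53 target genes, 29 were marked in all 4 libraries and 0 were KO-only or WT-only; SPATA18 had a peak in WT replicate 2 alone. CDKN1A, the gene of the CDK inhibitor p21, had a region over its listed start (chromosome 6, 36678297 to 36681272) with 115.6- and 159.2-fold in KO and 113.5- and 154.7-fold in WT. The genotypes overlapped there. Away from that start, 2 weak regions of CDKN1A were WT-only: one 3301 bp from the nearest listed start had 6.84- and 5.82-fold in WT, and one 11194 bp away had 6.21- and 4.54-fold. MDM2, the ubiquitin ligase of p53, had 173.5- and 214.3-fold in KO and 171.3- and 197.8-fold in WT.

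Losses and gains by list were few in number. Over all genes the shares were 0.173% KO-only and 0.293% WT-only, so a count of 0 in a list is near the background. The share of all genes marked in all 4 libraries, 61.0%, is the reference for the counts that follow. All 4 libraries marked 75 of 77 ribosomal protein genes, 26 of 28 cell cycle genes and 19 of 20 AP-1 and immediate early genes. They also marked 33 of 54 HOX and homeobox genes (61.1%) and 15 of 22 genes of the TGF-beta, EMT and mesenchyme list (68.2%). Each of these lists had 0 KO-only and 0 WT-only genes. Of 16 germline genes, 3 were marked in all 4, and of 20 neuronal and blood markers 7, again with 0 in either direction. Of 58 collagen and basement membrane genes, 23 were marked in all 4 and 1 was WT-only, LAMB3, the beta chain of an epidermal laminin. LAMB3 had no KO peak, against 9.94-fold in WT replicate 1 and 37.3-fold in WT replicate 2.

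Of 24 colon epithelium and Wnt genes, 17 were marked in all 4 and 1 was WT-only. That gene was KRT8, an epithelial keratin, whose listed start had no KO peak, against 8.69- and 9.29-fold in WT. The clustered protocadherins were mostly unmarked. Of 53 genes, 47 had no peak in any library, PCDHB14 was KO-only, and PCDHAC2 and PCDHAC1 (8.07- and 19.2-fold in WT) were WT-only. These shares, 1.89% KO-only and 3.77% WT-only, lay above those of all genes but rest on few genes.

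The zinc finger genes showed the difference between the WT libraries most clearly. Of 467 genes named ZNF with a number, 282 were marked in all 4 (60.4%, against 61.0% of all genes), 1 was KO-only (ZNF648) and 8 were WT-only. The WT-only share was 1.71%, against 0.293% of all genes. The promoters marked numbered 284 in each KO library, 290 in WT replicate 1 and 318 in WT replicate 2. WT replicate 2 alone marked 27 of these genes, out of 226 such genes among all 19126. ZNF44 had no KO peak, against 14.2-fold in WT replicate 1 and 171.5-fold in WT replicate 2, and ZNF416 none in KO, against 9.14- and 159.4-fold. ZNF83, ZNF808 and ZNF468 had no peak in KO or in WT replicate 1, and 163.1-, 143.7- and 111.7-fold in WT replicate 2. Of the 8 WT-only genes, ZNF566 came closest in the WT libraries, with 14.9- and 24.1-fold.

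Of the 60 strong regions missing from WT replicate 2 alone, 21 (35.0%) lay at promoters, against 47.7% of all regions and 70.4% of those in all 4 libraries. CCDC106 had 131.2- and 172.9-fold in KO and 154.0-fold in WT replicate 1, with no peak in WT replicate 2. CYGB, which encodes cytoglobin and shares its region with PRCD, had 161.7- and 167.8-fold in KO and 113.8-fold in WT replicate 1, and ROBO1, an axon guidance receptor, 68.5- and 86.6-fold in KO and 115.1-fold in WT replicate 1. APOE, apolipoprotein E, had 71.4- and 61.6-fold in KO and 50.1-fold in WT replicate 1. WT replicate 2 had no peak at any of these 4, so at such promoters WT replicate 1 sat with the KO libraries. These examples and those of WT replicate 2 alone were chosen after their values were seen.

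Away from promoters, the WT-only regions of highest fold included those near HNF4G and PXN. The region near HNF4G, a hepatocyte nuclear factor of the intestine, lay 82806 bp from the gene and had no KO peak, against 35.0- and 49.3-fold in WT (chromosome 8, 75323740 to 75324843). The one near PXN, which encodes the focal adhesion protein paxillin, spanned 3731 bp and had none in KO, against 24.8- and 18.98-fold in WT. The KO-only regions of highest fold were near JAM3, a junctional adhesion molecule, with 22.8- and 19.3-fold in KO, and ARHGAP22, with 15.4- and 18.1-fold in KO, with no peak in WT at either.

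Assigned to the nearest gene within 100 kb, WT-only regions touched 704 genes and KO-only regions 354, out of 13076 genes with any region. Of these, 24 genes had both. SMAD3, a signal transducer of TGF-beta, had 5 WT-only and 0 KO-only regions, 5 of mixed presence and 1 region shared by all 4 libraries. JADE2 and MYOF, a membrane repair protein, had 4 WT-only regions each, and ACTN4 (alpha-actinin 4), ITGA3 and ITGA6 (laminin-binding integrins), LIF, PXN, PDGFB and SLC2A1 (the glucose transporter GLUT1) had 3 each. CYTH4 had 3 WT-only regions but also 2 KO-only regions and 6 of mixed presence. In all, 17 genes had at least 3 WT-only regions and 0 had at least 3 KO-only regions. Genes with many regions around them can reach such counts more easily, and these were named after their counts were seen. WT-only regions also outnumbered KO-only ones, at 903 against 426, which by itself favours more genes with several WT-only regions. At equal list lengths the numbers were 505 and 491, and the count by gene was not repeated there.

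Other targets came from separate libraries and were read at distal regions, those outside promoters. The libraries of a genotype share an input, so the peaks of these targets are not fully independent of the H3K4me3 peaks. The part of the input in the shares below was not tested. H3K27ac covered fewer KO-only than WT-only regions in every library. At the 388 distal KO-only regions it was present at 42.3% and 40.7% in the KO libraries and at 55.9% and 57.2% in the WT libraries. At the 817 distal WT-only regions it was present at 71.1% and 73.6% in KO and at 92.5% and 91.7% in WT. At the 285 distal regions shared by all 4 with every fold under 10, which are closer in strength, the shares were 61.4% and 66.7% in KO and 81.1% and 83.2% in WT. In all 3 sets the shares were lower in both KO than in both WT libraries.

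H3K4me1, MLL1 and MLL4 had 1 library per genotype, so the shares compare those libraries. H3K4me1 was present in KO at 57.3% of distal WT-only regions (95% interval 53.9 to 60.6), against 99.3% in WT. At distal KO-only regions the shares were 83.8% in KO and 99.0% in WT, and at the weak shared regions 85.6% in KO and 96.1% in WT. MLL1 was present in KO at 17.4% of distal WT-only regions, against 45.3% in WT. At distal KO-only regions MLL1 stood at 22.2% in KO and 16.5% in WT, and at the weak shared regions at 28.4% in KO and 41.4% in WT. MLL4 peaks of WT covered 7.22% of distal KO-only regions (5.0 to 10.2), 9.06% of distal WT-only regions (7.3 to 11.2), 11.9% of the weak shared ones (8.7 to 16.2) and 31.4% of all distal shared regions. The intervals of the first 3 overlapped.

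**Figure D3:**
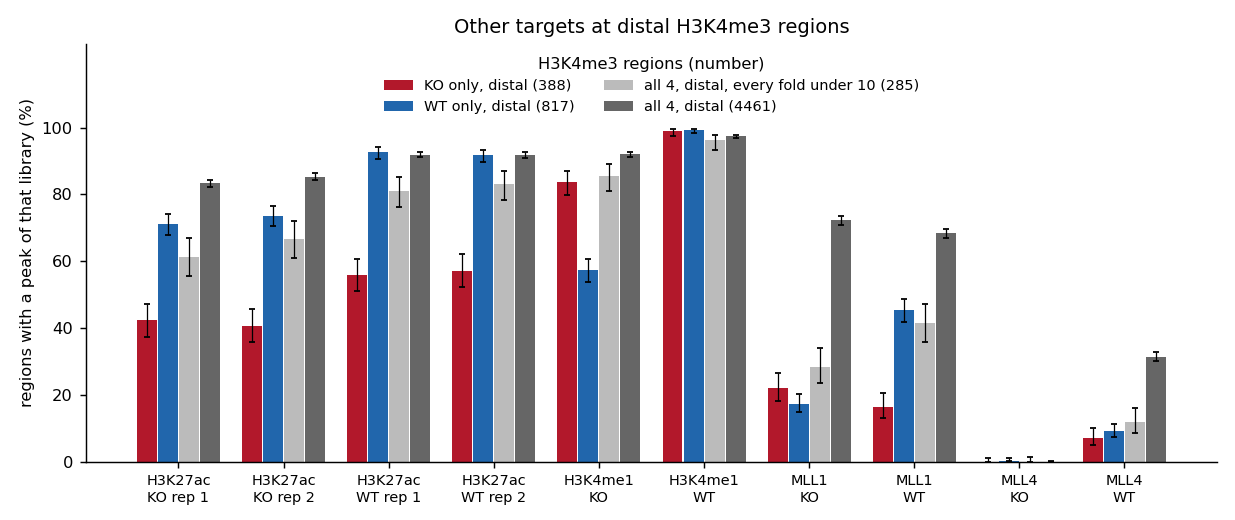
Percentage of distal H3K4me3 regions (y axis) that overlap a peak of each other library (x axis), for KO-only (388), WT-only (817), weak shared (285, every fold under 10) and all shared (4461) regions; error bars are 95% Wilson intervals. H3K4me1 of KO covers 57.3% of WT-only regions against 83.8% of KO-only and 85.6% of weak shared regions.

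Without WT replicate 2 the same order held over all regions, promoters included. Of the 487 regions then KO-only, H3K27ac covered 42.3% and 41.5% in KO and 57.5% in WT replicate 1, and of the 2209 then WT-only, 58.2% and 60.8% in KO and 85.6% in WT replicate 1. H3K4me1 in KO covered 82.8% of this KO-only set and 50.9% of this WT-only set, against 97.9% and 97.8% in WT.

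At 7 of the 10 named WT-only promoter regions, the absence in KO extended to H3K27ac and H3K4me1. The LRP12, PKIA, ZNF700, PCDHAC2, DUOX1, ZNF530 and MITF regions had no H3K27ac peak in either KO library and no H3K4me1 peak in KO, while each had H3K27ac in WT replicate 1 and H3K4me1 in WT. MITF alone among them had no H3K27ac peak in WT replicate 2. SCNN1A and BIK had H3K27ac in all 4 libraries and H3K4me1 in both genotypes. SDR42E2 had H3K4me1 in both genotypes and H3K27ac in WT alone. MLL4 of WT had a peak at LRP12, ZNF530 and MITF. Other peaks were present in KO. MLL1 had a peak in both genotypes at PKIA, SCNN1A and BIK, and in KO but not in WT at DUOX1. In both KO libraries, p53 had a peak at PKIA, DUOX1 and MITF. The 10 regions were chosen for high fold. Over all 903 WT-only regions, H3K27ac was present at 68.5% and 70.8% in the KO libraries, and H3K4me1 at 56.1% in KO.

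In the 15074 shared regions, the relative strength of H3K4me3 was compared by rank: within each library, a region's fold was turned into a percentile over these regions. The percentile was higher in both KO than in both WT libraries at 3620 regions (24.0%) and lower at 3000 (19.9%). Some regions take either order without a difference between the genotypes, so these are not counts of changed regions. Gaps were mostly small, with medians of 4.24 and 5.44 percentile points between the nearest KO and WT values, and gaps over 10 points were found at 695 regions for higher and 963 for lower ranks. Rank correlations over these regions, given as a description since all libraries of a genotype share 1 input, were 0.850 between the KO libraries, 0.838 to 0.885 between KO and WT libraries and 0.949 between the WT libraries. The KO libraries were thus no more alike in rank than KO and WT were. Leaving out any library raised both counts, to between 5408 and 6672 for higher and between 4567 and 5741 for lower ranks, since fewer values then have to be ordered.

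The promoter with the largest fall in rank was that of VPS53, a tether of endosome-to-Golgi transport. It stood at percentiles 21.6 and 24.0 in KO, against 92.0 and 92.7 in WT, with folds of 36.5 and 44.7 in KO and 175.8 and 200.4 in WT (chromosome 17, 713279 to 716329). Its width changed little, at 3041 and 2788 bp in KO and 2739 and 2813 bp in WT. ATG16L1, an autophagy factor, stood at 35.1 and 35.4 in KO, against 96.8 and 92.6 in WT. RBM14, a coactivator and RNA-binding protein, stood at 31.7 and 29.9 in KO and at 86.0 and 86.8 in WT, over a region shared with the RBM14-RBM4 readthrough gene. TERF1, a telomere-binding protein, RAD54B, of homologous recombination, and PKMYT1, a kinase that inhibits CDK1, had KO percentiles between 35.5 and 43.2 and WT percentiles between 83.8 and 94.5.

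RPS12, a protein of the small ribosomal subunit, had the largest rise in rank, at percentiles 97.7 and 81.2 in KO, against 24.5 and 28.8 in WT. Its folds were 181.5 and 170.2 in KO and 38.3 and 54.6 in WT (chromosome 6, 132812511 to 132817012). G3BP2, a stress granule protein, stood at 93.8 and 89.7 in KO and at 37.1 and 41.6 in WT. C6orf62, PPP1R14B (an inhibitor of protein phosphatase 1), ARPC2 (a subunit of the Arp2/3 complex) and CIPC, a negative regulator of the circadian clock, had KO percentiles between 71.3 and 97.5 and WT percentiles between 26.9 and 53.2. These 12 promoters were chosen for the gap between the genotypes. The WT libraries lay within 8 points of each other at each, while the KO libraries stood apart at C6orf62 (97.5 and 77.4) and RPS12.

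**Figure D4:**
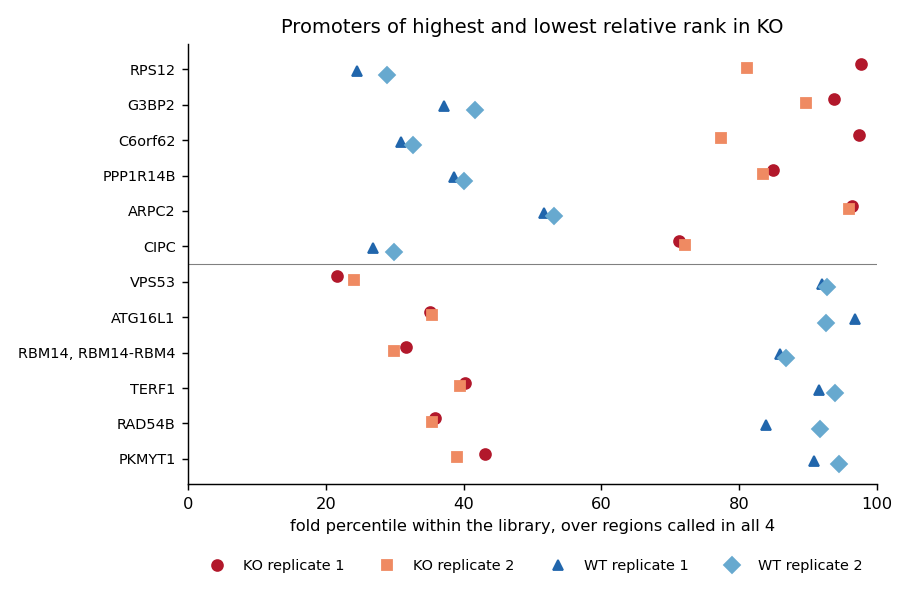
Fold percentile within each library (x axis), over the 15074 regions present in all 4 libraries, at the 6 promoters with the largest rise in rank (top) and the 6 with the largest fall (bottom) in KO. At RPS12 the KO libraries stand at 97.7 and 81.2 and the WT libraries at 24.5 and 28.8.

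Rank differences were uneven over chromosomes. On chromosome 21, 45.5% of shared regions ranked higher in both KO libraries, against 24.0% over all chromosomes, and 9.74% ranked lower. On chromosome 8, 32.2% ranked lower in both KO libraries, against 19.9% over all. The KO and WT libraries were each called against the input of their genotype, and the part of the input or of chromosome copy number in these shares was not tested. TERF1 and RAD54B, above, lie on chromosome 8, as do the WT-only regions at LRP12, at PKIA and near HNF4G. Of the chromosome 8 regions in both WT libraries, 7.66% were WT-only, against 5.44% over all chromosomes. Chromosomes 10 and 22 had higher shares, at 7.72% and 8.61%. The part of input or copy number was not tested there either.

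By gene, the promoter percentile was higher in both KO libraries at 2938 (25.2%) and lower at 2343 (20.1%) of the 11665 genes marked in all 4, ranked over these genes. Of 29 p53 targets, 16 ranked higher and 7 lower. FDXR, ferredoxin reductase, stood at 73.6 and 68.5 in KO and at 17.3 and 26.5 in WT, and SESN1, a sestrin that restrains mTORC1, at 69.8 and 66.9 in KO and at 26.2 and 36.5 in WT. POLH, the translesion polymerase eta, moved the other way, at 29.0 and 33.3 in KO and 94.1 and 88.6 in WT. Of 19 H3K4 methylation genes, 4 ranked higher and 7 lower, among the lower ones KDM1A, the demethylase LSD1, at 53.6 and 62.6 in KO and 94.2 and 90.1 in WT.

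Among 19 AP-1 and immediate early genes, 8 ranked higher and 7 lower. JUN stood at 34.5 and 59.0 in KO and 12.7 and 10.6 in WT, and FOSL2 at 9.40 and 21.0 in KO and 42.1 and 55.3 in WT. Of 17 colon and Wnt genes, 2 ranked higher and 5 lower, including the Wnt feedback gene AXIN2 at 40.2 and 47.0 in KO and 92.6 and 91.8 in WT. Of 15 genes of the TGF-beta list, 8 ranked higher and 1 lower, and TGFB1, the ligand, stood at 68.1 and 68.7 in KO and 26.0 and 14.2 in WT. Of 75 ribosomal protein genes, 12 ranked higher and 13 lower, and of 282 zinc finger genes 84 ranked higher and 50 lower. These list counts are descriptions, to be read against the 25.2% and 20.1% over all genes, and the members named were chosen after their values were seen.

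Peak width was larger in each KO library than in either WT library. The median peak width was 1921 and 1947 bp in the KO libraries, against 1677 and 1709 bp in the WT libraries (1934 ± 18.4 bp in KO, 1693 ± 22.6 bp in WT; SD, n = 2 each; log2 KO over WT 0.19, exact permutation p = 0.33). The genotypes did not overlap. Peaks wider than 4 kb made up 3.70% and 3.62% in KO, against 2.39% and 2.31% in WT. Those narrower than 1 kb made up 30.9% and 24.3% in KO and 33.5% and 31.4% in WT.

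The same order was seen over the same regions. In the 15074 shared regions the median covered width was 2366 and 2169 bp in KO, against 2085 and 2015 bp in WT (log2 KO over WT 0.14, exact permutation p = 0.33). Regions of over 4 kb numbered 796 and 688 in KO, against 544 and 495 in WT. In bp, both KO libraries were wider than both WT libraries at 7075 regions (46.9%) and narrower at 532 (3.53%). The excess was larger for KO replicate 1, which was wider than WT replicate 1 at 81.8% of regions, than for KO replicate 2, which was wider than WT replicate 1 at 63.7%. After division of each library by its own median, 2500 regions (16.6%) were relatively wider and 2557 (17.0%) relatively narrower in KO. Dividing by the median centres the libraries, so the balance of these counts is set by that step. Some regions take either order without a difference between the genotypes, so these are not counts of changed regions. Leaving out any 1 of the 4 libraries raised these relative counts to between 4399 and 6807 for wider and between 4349 and 6154 for narrower. Median folds over these regions were 88.4 and 105.5 in KO and 95.1 and 114.4 in WT, and their part in the widths was not tested. Fragment length and depth are not in the lists.

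**Figure D5:**
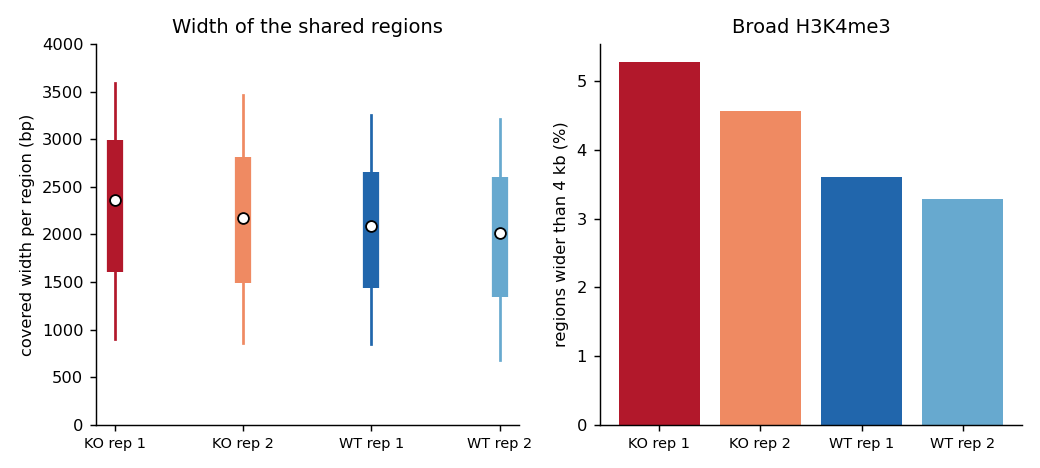
Left, covered width in bp (y axis) of the 15074 shared regions in each library (x axis): circles are medians, thick bars the 25th to 75th percentile and thin lines the 10th to 90th percentile. Right, percentage of these regions wider than 4 kb (y axis). KO medians are 2366 and 2169 bp and WT medians 2085 and 2015 bp.

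Against this shift, a few promoters were narrower in KO. BCL9L, a coactivator of beta-catenin, was covered over 3804 and 3827 bp in KO, against 9151 and 9142 bp in WT (chromosome 11, 118917471 to 118926692). Its folds stayed close, at 122.4 and 144.2 in KO and 127.9 and 171.3 in WT. The replicates of each genotype differed by under 25 bp there. The S100A14 and S100A16 region, at genes of epithelial calcium-binding proteins, spanned 2662 and 2777 bp in KO, against 4542 and 8548 bp in WT. TNS2, a focal adhesion tensin, spanned 2563 and 2963 bp in KO, against 4698 and 5273 bp in WT, and SFN, 14-3-3 sigma, 3672 and 3449 bp in KO, against 4707 and 4855 bp in WT.

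Relative widening was smaller. TTI2, a cochaperone of PI3K-related kinases, spanned 3205 and 2779 bp in KO, against 1691 and 1396 bp in WT. The region shared by ANKRD24 and SIRT6, a sirtuin, spanned 4024 and 3998 bp in KO, against 2528 and 2552 bp in WT. ALKBH5, an RNA demethylase, spanned 4996 and 5008 bp in KO, against 3602 and 3257 bp in WT. PSCA, prostate stem cell antigen, spanned 1235 and 1388 bp in KO, against 216 and 256 bp in WT, with folds of 13.1 and 12.1 in KO and 3.64 and 4.79 in WT.

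Of the 5 widest shared regions, those of ZNF503 and of HOXA9 and HOXA10 were wider in both KO than in both WT libraries, and the genotypes overlapped at the other 3. The region over HOXA9 and HOXA10, homeobox genes of posterior patterning, spanned 11566 and 11431 bp in KO and 11091 and 11314 bp in WT. TNRC18 spanned 11468 and 11885 bp in KO and 11807 and 12032 bp in WT. ZNF503 spanned 10739 and 10498 bp in KO and 9450 and 9661 bp in WT, RAB26 and TRAF7 9676 and 10485 bp in KO and 10119 and 9383 bp in WT, and the region of RECQL4 and LRRC14 11006 and 14756 bp in KO and 12273 and 11132 bp in WT. GAPDH, a glycolytic enzyme, spanned 4411 and 4221 bp in KO, against 4960 and 5011 bp in WT, and ACTB, beta-actin, 2998 and 3094 bp in KO, against 3471 and 3268 bp in WT, so 2 common reference genes went against the general widening.

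The promoters of the classes differed in base composition, which the choice of regions did not use. Over 300 bases around the listed start, the median number of CpGs was 8.5 at KO-only promoters (42 promoters), 18 at WT-only promoters (83), 27 at promoters marked in all 4 (12570) and 5 at promoters with no peak (7804). The GC box GGGCGG, searched on both strands, was found in 47.6% of KO-only, 51.8% of WT-only and 74.4% of shared promoters, against 56.6% of all. TATAAA was found in 9.52% of KO-only, 2.41% of WT-only and 4.73% of shared promoters, against 9.51% of all. CCGGAAGT, the core bound by ETS factors, was in 0% of KO-only, 3.61% of WT-only and 8.64% of shared promoters, against 5.44% of all. The 657 promoters of mixed presence had a median of 11 CpGs, with the GC box in 48.1%, TATAAA in 11.4% and CCGGAAGT in 1.83%. These values lay near the KO-only ones, so such a composition is not particular to KO-only promoters. With 42 KO-only and 83 WT-only promoters, the lower motif shares rest on few matches. Promoters of the strong regions of WT replicate 2 alone had a median of 22 CpGs (88 promoters), and those of the strong regions missing from it alone 8 (43). The printed promoters vary within the classes, with 30 CpGs at MITF and 11 at LAMB3, both WT-only, 29 at CDKN1A, marked in all 4, and 8 at PCDHB14, KO-only. Several promoters in these sets belong to the same gene, and a motif match is a description of the sequence and not of binding.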

How the data were processed

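H3K4me3 peak lists of 2 KO and 2 WT libraries were used. Peaks were called with MACS2 2.1.1 on hg38, per the submitters' processing notes, and by the deposited peak names each list comes from 1 library set against its genotype's input. For aligner, filters and depth, nothing is given in the sources used here. The deposited lists give per peak a fold enrichment over local background (a ratio), −log10 p- and q-values and a score; the authors' fold and −log10 q-value were used to describe, rank and filter, and the deposited score was not used.

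Peaks on chromosomes 1 to 22 were merged at 1 bp of overlap. Starts and sequences came from RefSeq tables on GRCh38.p14, which list starts for 15101 of 19126 protein-coding genes; for the other 4025, and all of chromosome 8, either gene end was used. Library values were compared by two-sided exact permutation tests. Shares have 95% Wilson intervals. Named regions are the 10 promoter regions of highest lower fold in each genotype, the 6 largest rank gaps and 4 largest relative width gaps in each direction, the 5 widest shared regions, list members with a promoter in 1 genotype, and 8 fixed genes; some items the rule names are not reported here. Members and gene lists were chosen with earlier results of these data known. Alternatives included a floor of 5 on the −log10 q-value, equal list lengths, merging over gaps of 500 bp, a window of 2500 bp, X included, and each library left out. Scripts, tested on simulated data, used Python 3.11.15, pandas 2.3.3, numpy 2.4.6, SciPy 1.17.1 and matplotlib 3.10.9.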

Additional observations from a re-analysis of the deposited data

How the results depend on the processing

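Of 111 alternative values for 12 results, 76 kept their direction and, for counts, lay within 1.5 times the reported value, 34 counts moved further, and 1 changed sign: log2 KO over WT peak number, −0.07 with all libraries and 0.0098 without KO replicate 2; with 1 library left out it ran from −0.14 to 0.0098. At −log10 q-values of at least 5 there were 596 WT-only regions, and with equal list lengths 505; equal lengths give no value for the peak number, which is then fixed. Requiring 10-fold in both libraries, chosen after seeing the data, left 28 KO-only and 49 WT-only regions. Rank gaps of more than 10 points, also chosen later, left 695 higher and 963 lower regions. Widths in bp gave 7075 wider and 532 narrower regions. Leaving out 1 library gave 487 to 1767 KO-only and 1013 to 2908 WT-only regions, 5408 to 6672 higher and 4567 to 5741 lower in rank, 4399 to 6807 wider and 4349 to 6154 narrower, 44 to 185 genes with a KO-only and 75 to 282 with a WT-only promoter; fewer libraries have to agree there by construction. With the replicate number as a block the log2 ratios were −0.07 for peak number, 0.11 for covered length and 0.19 for median width (sign-flip exact p = 0.5 each). Deviations of replicate 1 from its genotype mean correlated at −0.27 between genotypes over 15074 regions. With 2 libraries per genotype, this cannot show whether the replicate numbers mark a shared batch. Depth is unknown, so weak regions near the calling limit may be missed in any library.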
